A study of Arabidopsis thaliana with 64 samples.

Results

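The class III peroxidase family of Arabidopsis was followed across 64 one-colour Agilent arrays in the 59 of its 73 genes that remain once 14 others are set aside, namely *PRX5*, *PRX10*, *PRX12*, *PRX33*, *PRX34*, *PRX35*, *PRX37*, *PRX49*, *PRX52*, *PRX53*, *PRX54*, *PRX62*, *PRX70* and AT2G18150. These 14, together with the members *PRX8* (AT1G34510), *PRX38* (AT4G08780) and *PRX60* (AT5G22410), form the set that the study picked on these samples for induction by Pi deficiency in WT roots of both white-light sets and under B light. The remaining genes are therefore poor in such genes by construction, and the root values of *PRX8*, *PRX38* and *PRX60* under Pi deficiency are not independent evidence of their direction. Of the 59 members, 58 had a probe. *PRX1* (AT1G05240) had none, and 12 members had more than 1 probe, of which the probe with the highest mean signal was used. In all, 55 members were well above background in every array of at least 1 group and entered a test, whereas *PRX13*, *PRX36* and *PRX41* never did.

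The arrays form 3 separate sets. In the first white-light set, *hy5-215*, a mutant carrying an allele of the light-signalling factor HY5 that was induced with ethyl methanesulfonate, was compared with its WT (Col-0). In the second, *35S:BBX32-SRDX*, in which the constitutive 35S promoter drives BBX32 fused to the SRDX repression domain, was compared with another group of WT plants. Both sets held shoots and roots of plants 4 weeks old, Pi deficient and Pi sufficient, with 3 arrays per group, and the labels give their shoot tissue as leaf. The light set held shoots and roots of WT seedlings 3 weeks old under R or B light, Pi deficient and Pi sufficient, with 2 arrays per group. All plants grew on agar medium, and the sources differ on the hours of R and B light per day. Which transgenic line was hybridised is not given in the sources used here.

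Class III peroxidases are secreted haem enzymes of the plant cell wall. With hydrogen peroxide they couple phenolic monomers into lignin and suberin and cross-link wall proteins, which stiffens the wall. They can also produce reactive oxygen species, which loosens it. In Arabidopsis roots, members of the family are known for building the lignin ring of the endodermis, for root hair growth and for the balance between division and elongation at the root tip, where the transcription factor UPBEAT1 represses several of them.

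Signal was measured as Agilent's processed signal, and every level below is its log2 minus the 75th percentile of the same array, here called the log2 signal. A gene was called when limma's Benjamini-Hochberg adjusted p over all genes tested was under 0.05 and the log2 fold change was over 1 in size, that is more than 2-fold. Differences are given with their standard error (SE) from that fit. The 75th percentile of the raw signal was 2428 to 7700 on the white-light arrays and 79.5 to 266.8 on the light set, in which 45.1% to 66.8% of probes were well above background, compared with 68.7% to 83.8% on the white-light arrays. The targeted genes were checked first. In roots, *HY5* had log2 signals of -0.90 to -0.37 in *hy5-215* and 1.1 to 1.63 in WT, without overlap, whereas in shoots the ranges overlapped (-1.82 to -0.61 in *hy5-215* and -2.35 to -0.28 in WT). *BBX32* lay between 5.02 and 6.13 in *35S:BBX32-SRDX* roots and between -5.92 and -1.92 in WT roots, and between 4.34 and 4.76 in *35S:BBX32-SRDX* shoots against -4.49 to -3.22 in WT shoots. The highest WT root value came from a Pi-deficient array. In those WT roots the SD of *BBX32* was 2.28 with Pi deficiency and 0.15 with Pi sufficiency. The organ labels were matched by markers. The summed linear signal of 6 root hair markers was 5.53 to 19.6 in roots and 0.0223 to 0.657 in shoots, and that of 4 green tissue markers was 0.991 to 15 in roots and 253 to 1930 in shoots, all relative to the 75th percentile. WT Pi-deficient replicate 1 of the *hy5-215* set stood apart in both organs. Its roots had a log2 signal of 0.14 for the leaf gene *CA1*, against -3.86 and -4.77 in replicates 2 and 3, and its shoots had the highest signal of the group for all 6 root hair markers (*COBL9*, for example, at -2.68, against -4.76 and -6.10). The calls that were lost without either array are named beside the results.

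Most of the family was expressed in roots. Under white light, 28 of the 58 members with a probe were well above background in every array group of both organs, 10 in root groups only and 2, *PRX29* (AT3G17070) and *PRX68* (AT5G58400), in shoot groups only. In the light set 15 were detected in all groups, 18 in root groups only, 2 in shoot groups only (*PRX29* and *PRX67*) and 11 in none. *PRX42* (AT4G21960), also known as PRXR1, was among the genes detected throughout, with log2 signals of 5.91 to 6.69 in white-light roots and 5.99 to 6.63 in white-light shoots. It was called in no comparison. On the chromosomes, 6 pairs of members have no annotated gene between them (11 members in all, for example *PRX50* and *PRX51*, *PRX58* and *PRX59*, *PRX67* and *PRX68*). Whether their probes cross-hybridise was not tested.

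The organ contrast was made in Pi-sufficient WT plants of both white-light sets, roots over shoots. Of 53 members tested in the *hy5-215* set, 41 were higher and 3 lower in roots, or 83% of them, compared with 41.4% of all genes tested. Of 55 members tested in the *35S:BBX32-SRDX* set, again 41 were higher and 3 lower, or 80%, compared with 43.1% of all genes. The median difference over the members was 5.3 and 5.22 on the log2 scale, whereas the median over all genes was 0.27 in each set. With the 14 and 7 members that had no array above background in 1 organ set at their bound, the medians were again 5.3 and 5.22. The sets have separate plants, and 42 members were called in both, 95.5% of each list and 41 of them in the same direction. How large that share is over all called genes was not computed. A lower level in bulk tissue cannot be told apart from fewer cells of the type that expresses a gene.

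**Figure D1:**
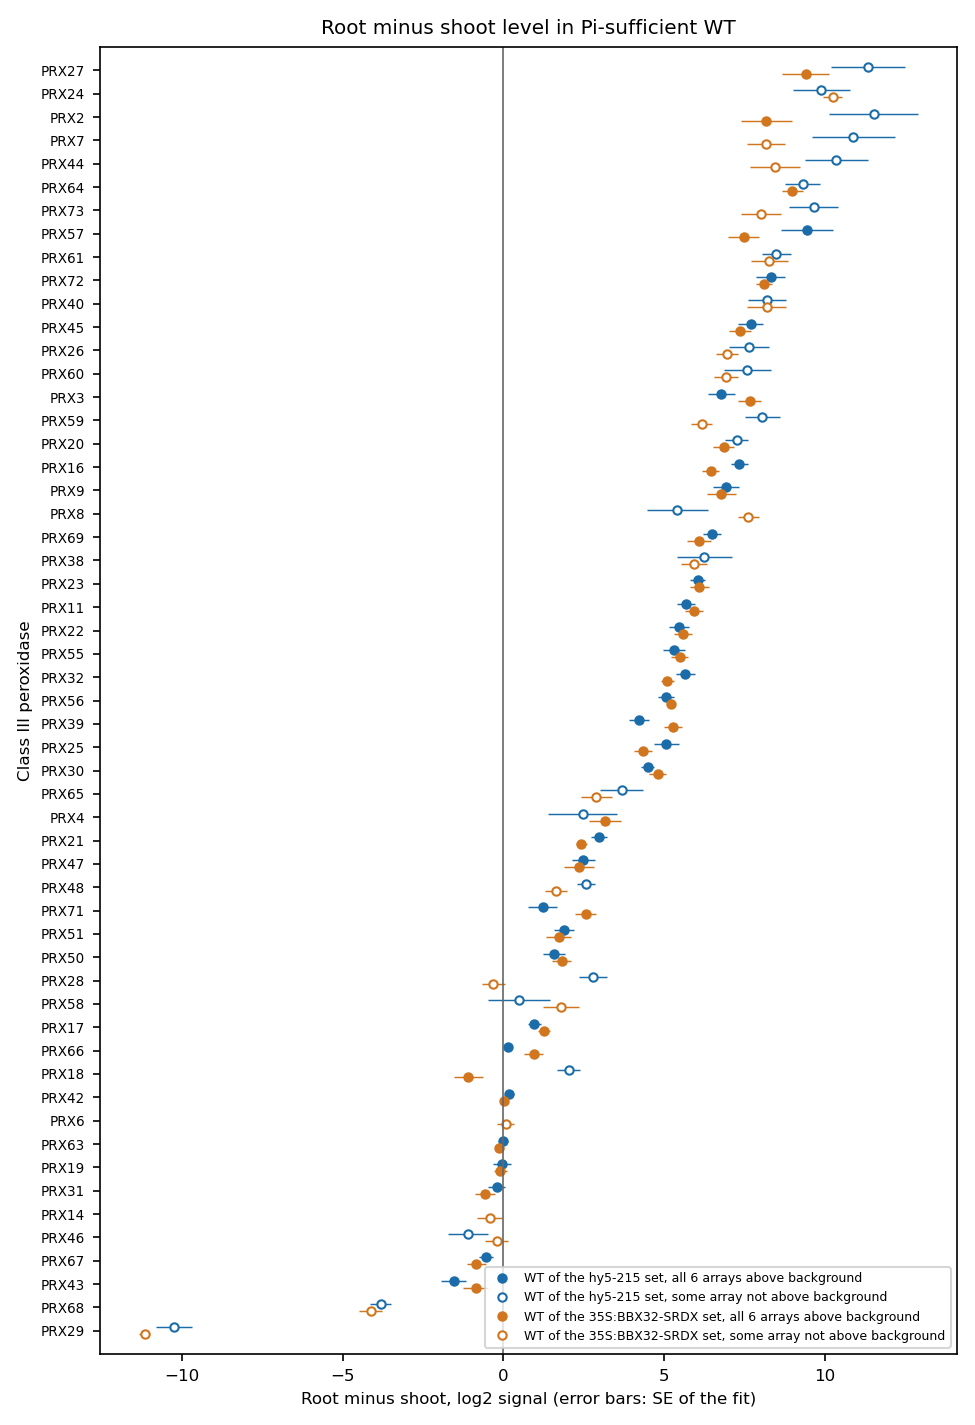
Difference between roots and shoots of Pi-sufficient WT plants for each tested member, in log2, in the *hy5-215* set and the *35S:BBX32-SRDX* set. Filled points mark members well above background on all 6 arrays, open points those that were not, and bars are the SE of the fit. Most members lie on the side of roots, and *PRX29* and *PRX68* lie on the side of shoots in both sets.

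The largest root excess belonged to genes that were close to background in shoots. *PRX27* (AT3G01190) had log2 signals of 3.68, 4.19 and 4.22 in roots of the *35S:BBX32-SRDX* set, against -6.22, -3.84 and -6.13 in the shoots, a difference of 9.42 (SE 0.73, adjusted p = 9.13e-10). No root array came within reach of a shoot array. *PRX2* (AT1G05250), one of the peroxidases that act in root lignification, had log2 signals of 2.52, 2.89 and 2.46 in roots of the *hy5-215* set and was not well above background in any of the shoots, so that its level in roots was at least 627-fold higher. In the other set its shoots were above background and the difference was 8.19 (SE 0.79, adjusted p = 2.39e-08). The bounds in the *hy5-215* set were at least 484-fold for *PRX7* (AT1G30870), at least 507-fold for *PRX44* (AT4G26010) and at least 198-fold for *PRX24* (AT2G39040).

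The peroxidases with a known place of action followed the organ split. *PRX3*, *PRX9*, *PRX39*, *PRX64* and *PRX72* take part in polymerising the lignin of the Casparian strip, the barrier in the endodermal wall, and all 5 were called higher in roots in both sets, by 4.23 (*PRX39*) to 9.32 (*PRX64*, above background in 1 of 3 shoot arrays) in the *hy5-215* set and by 5.28 to 9 in the *35S:BBX32-SRDX* set. For *PRX64* (AT5G42180), the log2 signals were 3.22, 3.02 and 2.95 in roots of the *35S:BBX32-SRDX* set, against -6.64, -5.02 and -6.15 in shoots. The 3 root arrays were close to each other and far above the shoots. Of the 4 genes listed for root hairs, *PRX44*, *PRX60* and *PRX73* had a probe and all 3 were higher in roots. No shoot array of the *hy5-215* set was above background for them, so that the bounds were at least 507-fold, at least 70.7-fold and at least 184-fold. For the *35S:BBX32-SRDX* set the differences were 8.46 for *PRX44* and 8.02 for *PRX73*, each above background in 2 of 3 shoot arrays, and 6.93 for *PRX60*, in 1 of 3. Of the genes that UPBEAT1 represses, *PRX39* was higher in roots by 4.23 and 5.28 and *PRX57* by 9.44 and 7.48 in the *hy5-215* and *35S:BBX32-SRDX* sets. *PRX40* was at least 89.3-fold higher in the *hy5-215* set and higher by 8.20 in the other, where 1 of 3 shoot arrays was above background. *PRX9* and *PRX40* are otherwise known from the tapetum of the anther, yet both were well above background in roots. Of 8 genes listed for vascular tissue and lignin, the test called 7 higher in roots in the *35S:BBX32-SRDX* set and 6 in the *hy5-215* set. Among the 6, *PRX4* (2.47, adjusted p = 0.0493) and *PRX71* (1.22, adjusted p = 0.0208) were not called with the slide as a block (adjusted p = 0.0523 and 0.08). With 1 array left out, *PRX4* was called only without WT shoot replicate 1 (adjusted p = 0.0628 to 0.236 in the other 5 fits). *PRX71* was lost without WT shoot replicate 1 (0.68, adjusted p = 0.164) or WT root replicate 2 (1.03, adjusted p = 0.0818).

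*PRX29* (AT3G17070) ran against the rest of the family. Its log2 signals were -9.43, -8.51 and -9.77 in roots of the *hy5-215* set, none well above background, against 0.93, 0.80 and 1.33 in the shoots. They were -9.50, -10.15 and -9.92 in roots of the *35S:BBX32-SRDX* set, again not above background, against 1.1, 1.45 and 1.4 in shoots. Its level was therefore at least 345-fold and at least 584-fold lower in roots, and in the light set every shoot array lay between 2.43 and 3.04 while no root array was above background. *PRX68* was at least 3.64-fold and at least 5.84-fold lower in roots. *PRX43* (AT4G25980) was lower in roots by 1.55 (SE 0.39, adjusted p = 0.00175) in the *hy5-215* set and was not called in the other set. *PRX18* (AT2G24800) changed sides between the sets, with 2.03 (SE 0.37, adjusted p = 7.2e-05) in the *hy5-215* set and -1.09 (SE 0.46, adjusted p = 0.0426) in the *35S:BBX32-SRDX* set. Not every shoot array of the *hy5-215* set was above background for it, so the size of 2.03 is uncertain. The value in the *35S:BBX32-SRDX* set was past the threshold with all 6 arrays and without WT root replicate 3. With any other array left out its adjusted p was 0.0584 to 0.146.

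**Figure D2:**
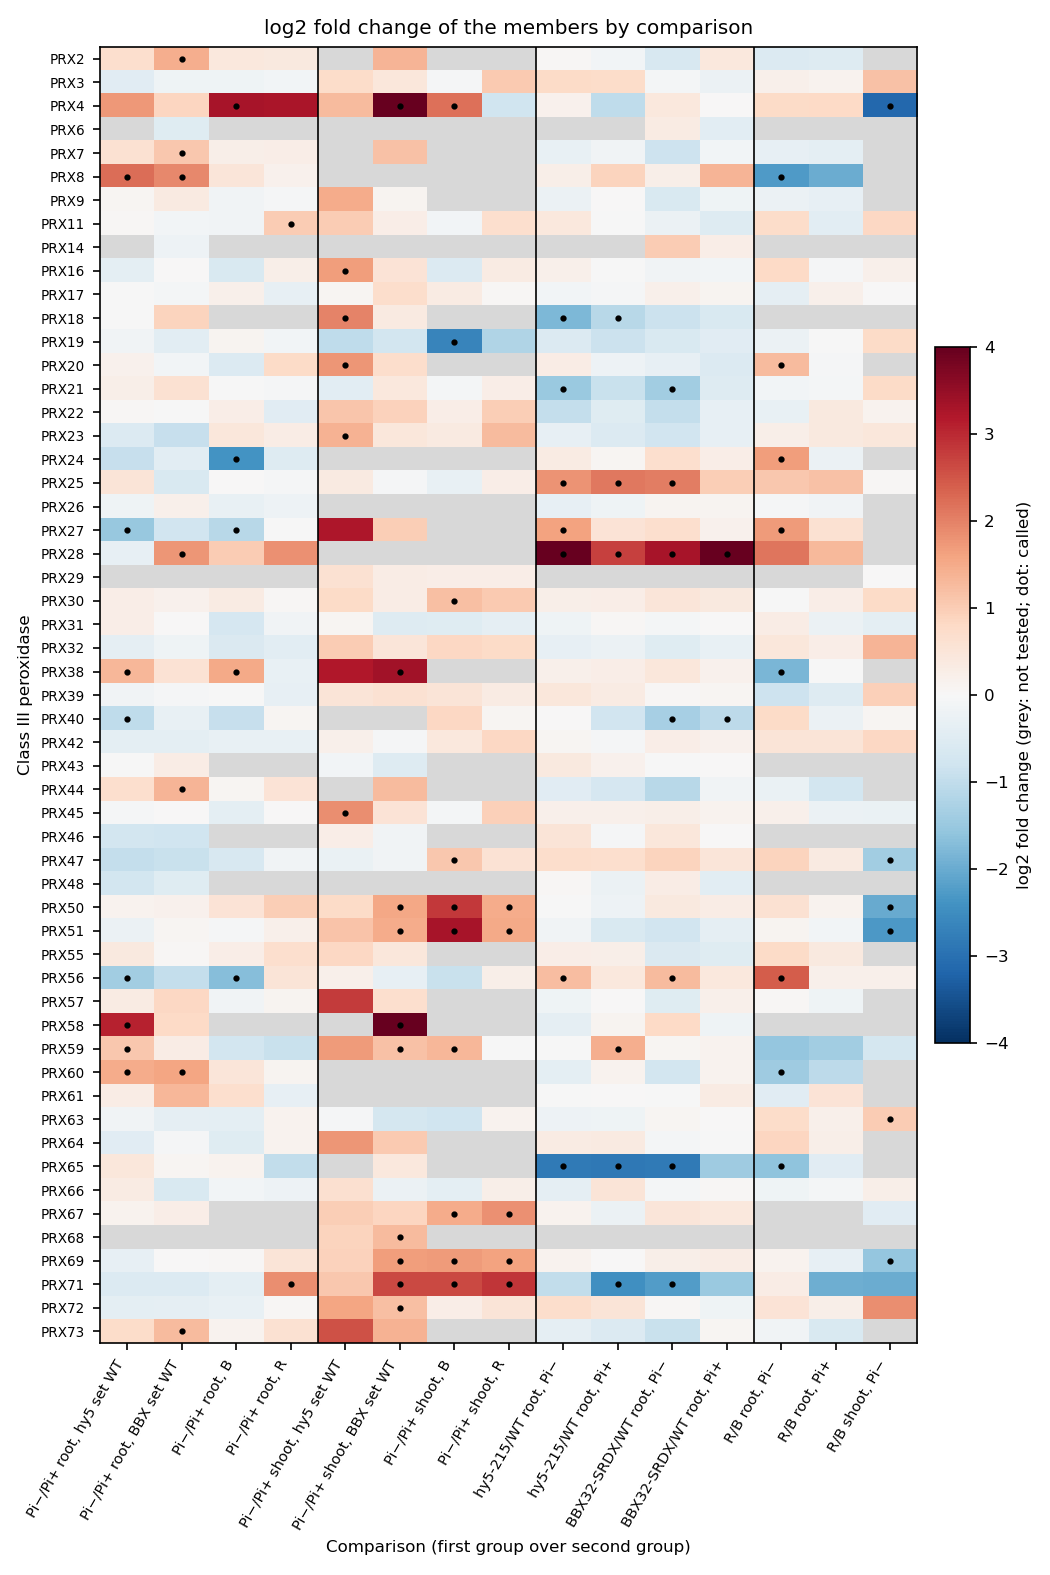
Log2 difference of each member (down) in each of 15 comparisons of Pi level, genotype or light within an organ (across), with the colour scale ending at -4 and 4. A dot marks a called value and grey a member not tested. Calls are scattered over 36 of the 55 tested members and the remaining 19 have none, counting also tests of differing Pi response, which are not drawn. The only call of *PRX32* is in such a test, so it has no dot here.

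Pi deficiency changed a small share of the members in WT roots. In the *hy5-215* set, 5 of 51 members tested were higher and 3 lower in Pi-deficient than in Pi-sufficient roots, which is 15.7% of them beside 7.24% of all genes (4.07% higher and 3.17% lower). For the *35S:BBX32-SRDX* set the test called 7 of 53 higher and none lower (13.2% of the members, 5.76% of all genes, of which 3.12% higher and 2.64% lower). Under B light 2 of 45 were higher and 3 lower (11.1%, beside 6.18% of all genes, 3.16% higher and 3.02% lower), and under R light 2 of 45 were higher (4.44%, beside 2.9% of all genes, 2.24% higher and 0.658% lower). Among the higher calls were members that the study picked on these samples for such a rise. They were *PRX8*, *PRX38* and *PRX60* in the *hy5-215* set, *PRX8* and *PRX60* in the *35S:BBX32-SRDX* set and *PRX38* under B light. The median over the members lay between -0.05 and 0.06 in the 4 comparisons, and that over all genes between -0.08 and 0.02.

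*PRX8* and *PRX60* rose in both white-light sets. *PRX8* had log2 signals of 0.44, 0.29 and 0.19 in Pi-deficient roots, against -1.72, -1.84 and -2.16 in Pi-sufficient roots of the *hy5-215* set, a rise of 2.22 (SE 0.15, adjusted p = 1.3e-05). The levels in the *35S:BBX32-SRDX* set were 0.40, 0.65 and 0.52 in Pi-deficient and -2.08, -0.79 and -1.35 in Pi-sufficient roots, a rise of 1.93 (SE 0.33, adjusted p = 0.00437). The groups did not overlap in either set. *PRX60*, also known as RHS18 from its expression in root hairs, rose by 1.49 (SE 0.14, adjusted p = 7.06e-05) and by 1.57 (SE 0.26, adjusted p = 0.00375). These were the only members called in both lists, 25% of the first and 28.6% of the second. Since the study picked both for this rise on these samples, their place in both lists is not independent evidence. Over all called genes the shares common to these lists were not computed. Under B light neither passed the test, with 0.47 (adjusted p = 0.512) for *PRX8* and 0.48 (adjusted p = 0.303) for *PRX60*. *PRX38* rose by 1.32 (SE 0.27, adjusted p = 0.00497) in the *hy5-215* set and by 1.53 (SE 0.28, adjusted p = 0.0154) under B light, where the levels were -0.39 and -0.23 in Pi-deficient against -1.81 and -1.87 in Pi-sufficient roots. Its value in the *35S:BBX32-SRDX* set was 0.59 (adjusted p = 0.0565). Without B Pi-deficient replicate 2 or B Pi-sufficient replicate 2, the rise of *PRX38* under B light was 1.45 (adjusted p = 0.0606) or 1.5 (adjusted p = 0.0634).

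*PRX2*, *PRX7*, *PRX44* and *PRX73*, all much higher in roots than in shoots, rose in the *35S:BBX32-SRDX* set and stayed under the fold limit in the other. *PRX2* had log2 signals of 3.63, 3.81 and 4.00 in Pi-deficient roots, against 1.79, 2.77 and 2.54 in Pi-sufficient roots, a rise of 1.44 (SE 0.26, adjusted p = 0.00503). *PRX44*, which acts in root hair growth together with *PRX73*, had 3.80, 3.96 and 3.82, against 1.90, 3.12 and 2.48, a rise of 1.37 (SE 0.35, adjusted p = 0.0279). *PRX73* (AT5G67400) rose by 1.27 (SE 0.35, adjusted p = 0.0341) and *PRX7* by 1.08 (SE 0.27, adjusted p = 0.0228). In all 4 genes Pi-sufficient replicate 1 was the lowest array and the groups stayed apart. Without it, *PRX44* had 1.07 (adjusted p = 0.107) and *PRX73* 0.97 (adjusted p = 0.126). With other arrays left out, *PRX44* was called without Pi-sufficient replicate 2 and not without the other 4 (adjusted p = 0.0542 to 0.0953), and *PRX73* was not called without Pi-sufficient replicate 3 or Pi-deficient replicate 2 or 3 (adjusted p = 0.0865 to 0.127). The call of *PRX7* was lost in 4 of the 6 fits with 1 array left out (adjusted p = 0.0643 to 0.0927). The slide block added *PRX61* to this list (1.33, adjusted p = 0.00237). In the *hy5-215* set the same genes had positive differences of 0.62 to 0.74, with adjusted p of 0.0103 for *PRX2*, 0.0337 for *PRX44*, 0.0175 for *PRX73* and 0.0218 for *PRX7*, under the fold limit. Root hair markers moved with them. Of 6 root hair markers, 5 were called higher in Pi-deficient roots of the *35S:BBX32-SRDX* set (*EXPA7*, *EXPA18*, *RHD6*, *RSL4* and *RSL2*, by 1.03 to 1.32), and their summed signal was 17.9 to 19.6 in Pi-deficient and 6.54 to 12.5 in Pi-sufficient roots. For the *hy5-215* set 1 of 6 was called and the sums were 13.6 to 14.7 and 7.38 to 11. Under B light none was called and the sums were 7.42 to 7.95 and 6.48 to 7.86. Under R light, where *PRX2*, *PRX7*, *PRX44* and *PRX73* were not called, the sums were 8.03 to 10.7 in Pi-deficient and 5.53 to 5.89 in Pi-sufficient roots. The part of these markers in the result was not tested. Xylem marker sums were 10.6 to 16.9 in Pi-deficient and 21.8 to 35 in Pi-sufficient WT roots of the *35S:BBX32-SRDX* set, with *CESA4* and *XCP1* called lower.

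*PRX27* and *PRX56* fell. *PRX27* had log2 signals of 2.35, 2.28 and 2.29 in Pi-deficient roots, against 3.92, 3.81 and 3.75 in Pi-sufficient roots of the *hy5-215* set, and fell by 1.52 (SE 0.08, adjusted p = 3.67e-06). The arrays of each group lay within a narrow band and the bands were far apart. Under B light it was at 2.66 and 2.49, against 3.67 and 3.70, and fell by 1.11 (SE 0.20, adjusted p = 0.0148). *PRX56* (AT5G15180) fell by 1.39 (SE 0.22, adjusted p = 0.00132) in the *hy5-215* set and by 1.71 (SE 0.29, adjusted p = 0.0126) under B light, with 1.23 and 2.08 in Pi-deficient and 3.15 and 3.57 in Pi-sufficient roots. The *35S:BBX32-SRDX* set had values of -0.76 (adjusted p = 0.0173) for *PRX27* and -0.94 (adjusted p = 0.0021) for *PRX56*, short of the fold limit. *PRX27*, *PRX38* and *PRX56* were called in both the *hy5-215* and the B light lists (37.5% of the first, 60% of the second), of which *PRX38* was picked by the study for its rise. Shares over all called genes were not computed here either. Under B light, *PRX27* lost the call without Pi-deficient replicate 2 (-1.02, adjusted p = 0.0557), Pi-sufficient replicate 1 (-1.13, adjusted p = 0.0501) or Pi-sufficient replicate 2 (-1.09, adjusted p = 0.0689), and *PRX56* without Pi-sufficient replicate 2 (-1.49, adjusted p = 0.0631). Xylem marker sums of all 3 Pi-deficient arrays of the *hy5-215* set lay below the 14 to 16.4 of Pi-sufficient roots, and under B light they were 6.54 to 8.16 in Pi-deficient and 11.1 to 12.7 in Pi-sufficient roots, with *CESA4* called lower (-1.06, adjusted p = 0.0183). Endodermis marker sums were 20.2 to 21.3 in Pi-deficient and 24 to 34 in Pi-sufficient roots of the *hy5-215* set, with *CASP5* called lower (-2.17), and 18.4 to 19.3 and 23.3 to 27.9 under B light. Under R light, where neither *PRX27* nor *PRX56* was called, xylem sums were 9.29 to 9.58 in Pi-deficient and 11.2 to 11.4 in Pi-sufficient roots. Endodermis sums there were 28.3 to 35.5 and 27.3 to 29.1. The part of these markers in the peroxidase values was not tested.

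The remaining root calls were each made in 1 comparison. Under B light *PRX24* fell by 2.40 (SE 0.23, adjusted p = 0.00118), with log2 signals of -2.27 and -2.93 in Pi-deficient against -0.26 and -0.13 in Pi-sufficient roots. *PRX4* (AT1G14540) was at -2.50 and -2.33 in Pi-deficient roots and not above background in Pi-sufficient roots under B light, and was at least 2.34-fold higher (adjusted p = 0.0362, and 0.0699 to 0.129 with any single array of the pair left out). The slide block called it in 2 further comparisons, under R light (3.25, adjusted p = 0.0293) and in the *hy5-215* set (1.74, adjusted p = 0.0469). Under R light *PRX71* (AT5G64120), which restricts growth and responds to wall damage, was at 0.93 and 1.31 in Pi-deficient and -1.12 and -0.38 in Pi-sufficient roots. This is a rise of 1.87 (SE 0.37, adjusted p = 0.036). *PRX11* (AT1G68850) rose by 1.03 (SE 0.21, adjusted p = 0.0427) under R light. Neither R light call held when any 1 of the 4 arrays was left out (adjusted p = 0.0625 to 0.263 for *PRX71* and 0.109 to 0.346 for *PRX11*). *PRX59* (AT5G19890) rose by 1.09 (SE 0.25, adjusted p = 0.0103) in the *hy5-215* set, and *PRX58* (AT5G19880), its neighbour on the chromosome, was at -4.06, -4.61 and -4.54 in Pi-deficient roots and above background in 1 of 3 Pi-sufficient arrays (-6.10), with a difference of 3.08 (SE 0.85, adjusted p = 0.0228). *PRX40* (AT4G16270) fell by 1.03 (SE 0.14, adjusted p = 0.000572). The calls of *PRX58*, *PRX59* and *PRX40* did not hold without Pi-deficient replicate 1, where *PRX58* had 2.91 (adjusted p = 0.0639), *PRX59* 0.97 and *PRX40* -0.94. *PRX59* also dropped to 0.99 without Pi-sufficient replicate 2 and 0.92 without Pi-sufficient replicate 3, *PRX40* to -0.89 without Pi-sufficient replicate 1, and *PRX58* had an adjusted p of 0.0541 to 0.0837 in each left-out fit but that without Pi-sufficient replicate 1. *PRX28* (AT3G03670) was above background in 2 of 3 Pi-deficient arrays of the *35S:BBX32-SRDX* set (-7.14 and -7.59) and in no Pi-sufficient array (adjusted p = 0.0204). Its adjusted p was 0.0574 to 0.0814 without Pi-deficient replicate 2 or 3 or Pi-sufficient replicate 1 or 2.

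The 5 Casparian strip peroxidases gave no call for Pi level, genotype or light in roots. Their differences between Pi-deficient and Pi-sufficient roots of the *hy5-215* set were -0.46 to 0.09 (median -0.39), of which *PRX3* (AT1G05260; -0.46, adjusted p = 0.00274) and *PRX64* (-0.45, adjusted p = 0.0329) passed the adjusted p alone and fell short of the fold limit. They were -0.36 to 0.35 in the *35S:BBX32-SRDX* set. A *PRX64* spot in WT Pi-deficient roots of that set was marked as an outlier by the scanner software and left out, so that its mean there rests on 2 arrays. In *hy5-215* roots *PRX3* was higher than in WT by 0.77 (adjusted p = 0.000227) under Pi deficiency and by 0.73 (adjusted p = 0.000391) under Pi sufficiency, and *PRX72* by 0.71 (adjusted p = 0.00764) and 0.50 (adjusted p = 0.0485). The summed signal of 7 endodermis markers was 26.3 to 31 in *hy5-215* and 20.2 to 21.3 in WT roots under Pi deficiency, and 28.1 to 43.7 and 24 to 34 under Pi sufficiency. In *35S:BBX32-SRDX* roots *PRX3* differed from WT by -0.08 and -0.23 and *PRX72* by 0.06 and -0.16, and neither passed the test.

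The genotypes were compared with WT at each Pi level. Each of these comparisons uses the same WT arrays as the Pi comparison of its set, so the values stand side by side and no overlap between them is counted. In Pi-deficient roots, 4 of 51 members were higher and 3 lower in *hy5-215* than in WT (13.7%, beside 6.08% of all genes, 2.91% higher and 3.17% lower), and 3 of 53 were higher and 4 lower in *35S:BBX32-SRDX* (13.2%, beside 5.23%, 2.53% higher and 2.69% lower). In Pi-sufficient roots, 3 of 51 were higher and 3 lower in *hy5-215* (11.8%, beside 5.06%, 2.04% higher and 3.03% lower), and 1 of 53 was higher and 1 lower in *35S:BBX32-SRDX* (3.77%, beside 0.717%, 0.614% higher and 0.102% lower). *PRX21*, *PRX25*, *PRX28*, *PRX56* and *PRX65* were called in both genotypes under Pi deficiency, 71.4% of each list and all in the same direction. The plants and WT controls of the 2 sets were separate, and the share of all called genes common to both genotypes was not computed.

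**Figure D3:**
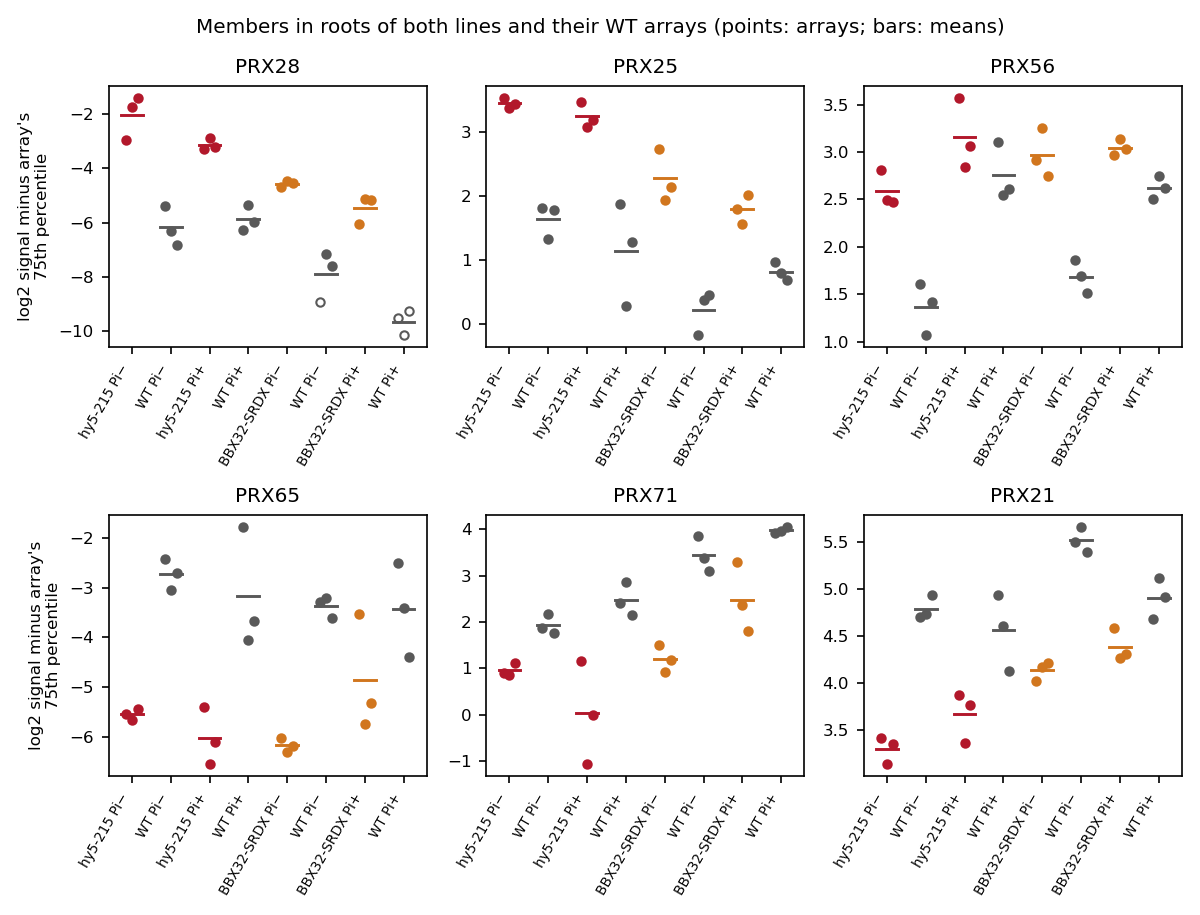
Log2 signal of *PRX28*, *PRX25*, *PRX56*, *PRX65*, *PRX71* and *PRX21* in roots of *hy5-215* and its WT and of *35S:BBX32-SRDX* and its WT at both Pi levels. Points are arrays, bars are means and open points were not well above background. In Pi-deficient roots the 3 arrays of each mutant lie above those of WT for *PRX28* and below them for *PRX65*.

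Of the members called in these comparisons, *PRX28* had the largest rise in each. Under Pi deficiency its log2 signals were -2.94, -1.73 and -1.4 in *hy5-215*, against -5.37, -6.32 and -6.81 in WT roots, a rise of 4.14 (SE 0.45, adjusted p = 0.000221). In Pi-sufficient roots they were -3.30, -2.88 and -3.22 in *hy5-215*, against -6.26, -5.34 and -5.96 in WT, a rise of 2.72 (SE 0.45, adjusted p = 0.00294). All mutant arrays were above all WT arrays. In *35S:BBX32-SRDX* roots it was at -4.68, -4.46 and -4.55, against -8.91, -7.14 and -7.59 in WT under Pi deficiency, where 2 of 3 WT arrays were above background, with a difference of 3.31 (SE 0.42, adjusted p = 0.001). Under Pi sufficiency it was at least 5.38-fold higher in *35S:BBX32-SRDX* (adjusted p = 0.00225), since no WT array was above background. Its signal was low in every group, and no shoot array was above background.

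*PRX25* (AT2G41480), one of the peroxidases tied to lignin of the stem, and *PRX56* were higher as well. *PRX25* had log2 signals of 3.53, 3.37 and 3.44 in *hy5-215*, against 1.81, 1.33 and 1.77 in WT Pi-deficient roots, a rise of 1.81 (SE 0.33, adjusted p = 0.00392). In *35S:BBX32-SRDX* it had 2.73, 1.94 and 2.14, against -0.18, 0.37 and 0.45 in WT, a rise of 2.06 (SE 0.23, adjusted p = 0.000437). The mutant arrays were all above the WT arrays in both sets. In Pi-sufficient roots the rise was 2.11 (SE 0.33, adjusted p = 0.00212) in *hy5-215*, while 0.98 (adjusted p = 0.0764) in *35S:BBX32-SRDX* did not pass the test. *PRX56* rose by 1.22 (SE 0.22, adjusted p = 0.00359) in *hy5-215* and by 1.28 (SE 0.14, adjusted p = 0.000422) in *35S:BBX32-SRDX* under Pi deficiency, and its value in Pi-sufficient *hy5-215* roots was 0.41 (adjusted p = 0.292). *PRX27* had 3.93, 3.85 and 4.01 in *hy5-215*, against 2.35, 2.28 and 2.29 in WT Pi-deficient roots, a rise of 1.62 (SE 0.08, adjusted p = 3.16e-06). In *35S:BBX32-SRDX* its difference was 0.68 (adjusted p = 0.0345), under the fold limit. *PRX59* rose by 1.46 (SE 0.25, adjusted p = 0.00377) in Pi-sufficient *hy5-215* roots.

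*PRX65*, *PRX21* and *PRX71* were lower. *PRX65* (AT5G47000) had log2 signals of -5.55, -5.66 and -5.44 in *hy5-215*, against -2.41, -3.05 and -2.71 in WT Pi-deficient roots, and fell by 2.82 (SE 0.52, adjusted p = 0.00408). In *35S:BBX32-SRDX* it had -6.04, -6.31 and -6.19, against -3.28, -3.21 and -3.60 in WT, and fell by 2.82 (SE 0.56, adjusted p = 0.0102). Mutant and WT arrays did not overlap. *PRX21* (AT2G37130) fell by 1.48 (SE 0.20, adjusted p = 0.000715) in *hy5-215* and by 1.38 (SE 0.13, adjusted p = 0.000253) in *35S:BBX32-SRDX* under Pi deficiency. *PRX71* was at 1.51, 0.91 and 1.18 in *35S:BBX32-SRDX*, against 3.86, 3.38 and 3.09 in WT Pi-deficient roots, and fell by 2.25 (SE 0.33, adjusted p = 0.00223). In Pi-sufficient *hy5-215* roots it was at 1.16, -1.07 and -0.01, against 2.40, 2.86 and 2.15 in WT, and fell by 2.44 (SE 0.44, adjusted p = 0.00492). The *hy5-215* arrays were spread over more than 2 log2 units yet stayed below every WT array. Under Pi deficiency its value in *hy5-215* was -0.97 (adjusted p = 0.171), and in Pi-sufficient *35S:BBX32-SRDX* roots it was -1.49 (adjusted p = 0.0704).

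*PRX18* and *PRX40* were each called in 1 genotype. *PRX18* fell by 1.80 (SE 0.19, adjusted p = 0.000181) in Pi-deficient and by 1.1 (SE 0.19, adjusted p = 0.0036) in Pi-sufficient *hy5-215* roots, where it dropped under the fold limit without *hy5-215* replicate 1 (-0.95). *PRX40* was at -1.89, -1.96 and -1.74 in *35S:BBX32-SRDX*, against -0.32, -0.82 and -0.51 in WT Pi-deficient roots, and fell by 1.32 (SE 0.15, adjusted p = 0.000577). Under Pi sufficiency it fell by 1.04 (SE 0.15, adjusted p = 0.0115), and that call was lost without *35S:BBX32-SRDX* replicate 2 (-0.90) or WT replicate 1 (adjusted p = 0.0511) or 2 (adjusted p = 0.054). With the slide as a block, 4 members instead of 2 were called in Pi-sufficient *35S:BBX32-SRDX* roots, the added ones being *PRX71* (-1.49, adjusted p = 0.0128) and *PRX8* (1.36, adjusted p = 0.0181), and in Pi-deficient *35S:BBX32-SRDX* roots the block added *PRX44* (-1.12, adjusted p = 0.0223). Among green tissue markers, *RBCS1A* and *RCA* were called lower in roots of *hy5-215* at both Pi levels and of *35S:BBX32-SRDX* under Pi deficiency. *CA1* and *GLK1* were not called in these comparisons, and *CA1* had 0.44 and 0.57 in Pi-deficient and Pi-sufficient *35S:BBX32-SRDX* roots. In Pi-sufficient *35S:BBX32-SRDX* roots none of the 4 markers was called. Their summed signal was 1.09 to 1.43 in *hy5-215* and 2.45 to 14.6 in WT under Pi deficiency, 1.4 to 2.19 and 8.62 to 9.31 under Pi sufficiency, 1.15 to 2.48 in *35S:BBX32-SRDX* and 4.69 to 8.85 in WT under Pi deficiency, and 3.61 to 9.59 and 10.7 to 13.5 under Pi sufficiency. Root hair marker sums in Pi-deficient roots were 9.58 to 15.2 in *35S:BBX32-SRDX* and 17.9 to 19.6 in WT, with *RSL4* called lower. Xylem marker sums were higher in all 3 *hy5-215* arrays than in any WT array at both Pi levels, with 14.4 to 16.1 in *hy5-215* under Pi deficiency and 21.1 to 23.8 in *hy5-215* and 14 to 16.4 in WT under Pi sufficiency, with none of the 6 markers called. For *35S:BBX32-SRDX* and its WT they overlapped, at 14.4 to 25.3 and 10.6 to 16.9 under Pi deficiency and 24.2 to 37.2 and 21.8 to 35 under Pi sufficiency. The part of these markers in the peroxidase values was not tested.

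In shoots no member was called between either genotype and WT under Pi deficiency, the Pi level compared in this organ. Of 40 members tested, none was called in *hy5-215* by limma, beside 0.159% of all genes (0.0233% higher and 0.135% lower), and 6 had an unadjusted p under 0.05, all lower. Of 45 tested in *35S:BBX32-SRDX* none was called, beside 0.103% (0.0327% higher and 0.0701% lower), and 12 had an unadjusted p under 0.05, 2 higher and 10 lower. The shares of all genes refer to calls. The share with an unadjusted p under 0.05 was not computed, so neither the 6 nor the 12 can be set beside one. The median over the members was -0.21 in *hy5-215* and -0.26 in *35S:BBX32-SRDX*, whereas that over all genes was 0.00 and 0.03. *PRX7* had the lowest adjusted p in *35S:BBX32-SRDX*, with a difference of -3.83 (adjusted p = 0.0865). With the slide as a block 5 members were called there, of which *PRX7* (-3.83, adjusted p = 0.0355), *PRX73* (-3.62, adjusted p = 0.0417) and *PRX23* (-1.14, adjusted p = 0.0371) were lower, and *PRX43* (1.09, adjusted p = 0.047) and *PRX46* (1.06, adjusted p = 0.017) higher. The slide block called no member in *hy5-215* shoots.

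R and B light were compared in WT. In Pi-deficient roots 4 of 45 members were higher and 4 lower under R light than under B light (17.8%, beside 5.57% of all genes, 3.55% higher and 2.02% lower), whereas in Pi-sufficient roots none was called (0.297% of all genes), with 9 at an unadjusted p under 0.05, of which 4 were higher and 5 lower. The share of all genes at that unadjusted limit was not computed. These comparisons share arrays with the Pi comparisons of the light set, and the B arrays with Pi deficiency are among those on which the study picked *PRX8*, *PRX38* and *PRX60*.

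**Figure D4:**
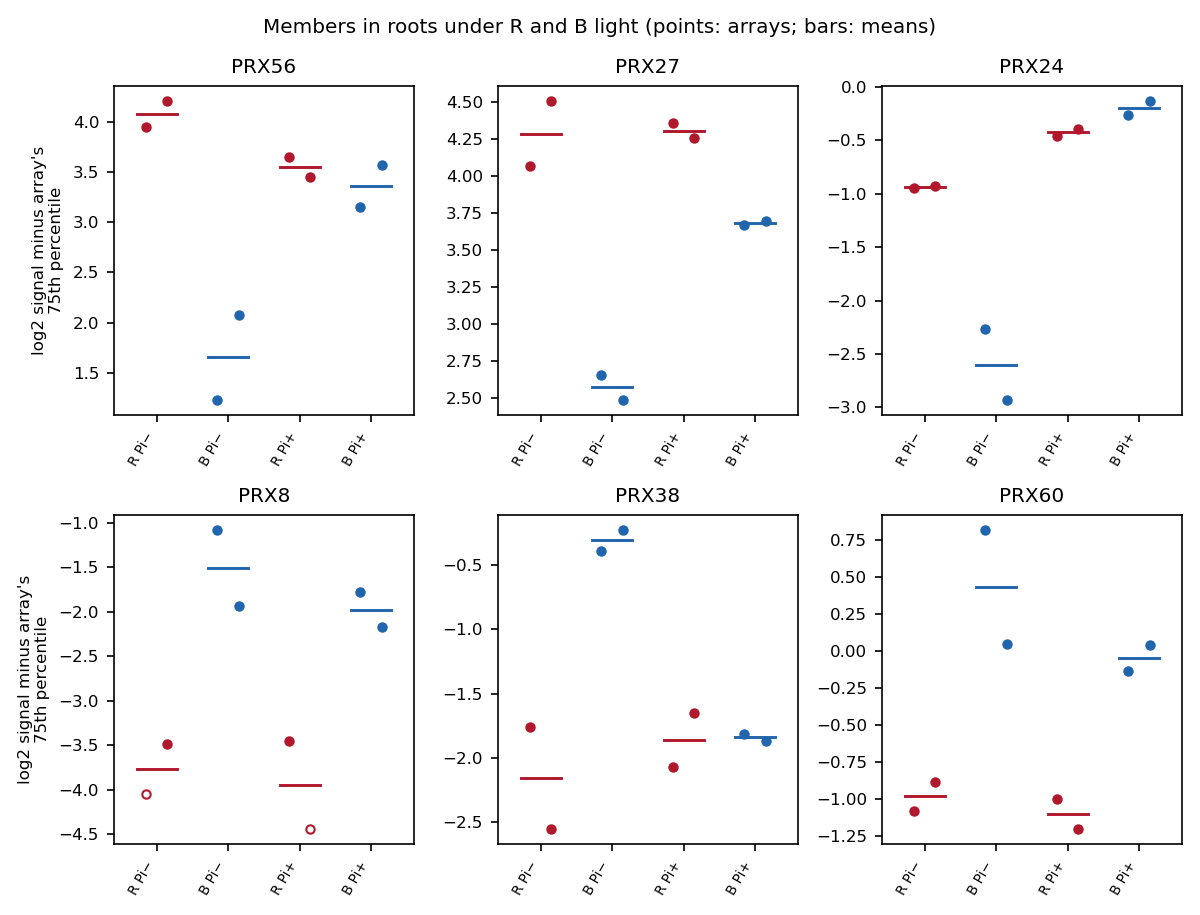
Log2 signal of *PRX56*, *PRX27*, *PRX24*, *PRX8*, *PRX38* and *PRX60* in WT roots under R and B light at both Pi levels. Points are arrays, bars are means and open points were not well above background. *PRX56*, *PRX27* and *PRX24* are lowest in B light with Pi deficiency, and *PRX8* and *PRX60* are lower under R light than under B light at both Pi levels.

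*PRX56*, *PRX27* and *PRX24* were higher under R light with Pi deficiency. *PRX56* was at 3.95 and 4.21 under R light, against 1.23 and 2.08 under B light, a rise of 2.42 (SE 0.29, adjusted p = 0.00448). *PRX27* was at 4.07 and 4.51, against 2.66 and 2.49, a rise of 1.71 (SE 0.20, adjusted p = 0.00398). *PRX24* was at -0.95 and -0.93, against -2.27 and -2.93, a rise of 1.66 (SE 0.23, adjusted p = 0.00707). In all 3 genes both R arrays were above both B arrays, and the B arrays shared with the Pi comparison are the low ones in each. *PRX20* (AT2G35380) was at 2.06 and 2.17, against 0.76 and 0.98, a rise of 1.25 (SE 0.21, adjusted p = 0.0142). *PRX24* was not called without R replicate 2 (adjusted p = 0.0576), nor *PRX20* without B replicate 1, R replicate 1 or R replicate 2 (adjusted p = 0.0587 to 0.0953).

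*PRX8*, *PRX38*, *PRX60* and *PRX65* were lower under R light. *PRX8* was above background in 1 of 2 R arrays (-3.49), against -1.08 and -1.93 under B light, and fell by 2.26 (SE 0.40, adjusted p = 0.0162). *PRX38* was at -1.76 and -2.55 under R light, against -0.39 and -0.23 under B light, and fell by 1.84 (SE 0.28, adjusted p = 0.00918). *PRX60* was at -1.08 and -0.88, against 0.82 and 0.05, and fell by 1.41 (SE 0.26, adjusted p = 0.0192). *PRX65*, which the study did not pick, was above background in 1 of 2 R arrays (-2.92), against -1.48 and -1.44 under B light, and fell by 1.60 (SE 0.29, adjusted p = 0.0185). R and B arrays did not overlap for any of the 4. Without B replicate 1, R replicate 1 or R replicate 2 the calls of *PRX8* (adjusted p = 0.0672 to 0.0921), *PRX60* (adjusted p = 0.0599 to 0.0952) and *PRX65* (adjusted p = 0.0801 to 0.0973) were lost, and that of *PRX65* also without B replicate 2 (adjusted p = 0.0529). In Pi-sufficient roots the slide block called *PRX8* (-1.97, adjusted p = 0.0469) and *PRX59* (-1.38, adjusted p = 0.0394) lower under R light, where the fit without it called none. The summed green tissue markers were 0.991 to 2.22 under R light and 6.33 to 15 under B light in Pi-deficient roots. Endodermis markers summed to 28.3 to 35.5 under R light and 18.4 to 19.3 under B light. Xylem markers summed to 9.29 to 9.58 and 6.54 to 8.16, and root hair markers to 8.03 to 10.7 and 7.42 to 7.95. Their part in the result was not tested.

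Values of *PRX28* and *PRX25*, the genes that rose in both genotypes, were 2.13 (adjusted p = 0.244) and 1.08 (adjusted p = 0.0844) for R over B light in Pi-deficient roots and were not called. The slide block called *PRX25* (adjusted p = 0.0246) and added *PRX59* (-1.55, adjusted p = 0.00571), but not *PRX28*. For *PRX65*, *PRX56* and *PRX27*, the difference in Pi-deficient roots was -2.82, 1.22 and 1.62 for *hy5-215* over WT, -2.82, 1.28 and 0.68 for *35S:BBX32-SRDX* over WT, and -1.60, 2.42 and 1.71 for R over B light. All but the *PRX27* value in *35S:BBX32-SRDX* were called, in plants and arrays that the 3 sets do not share. Other calls in Pi-deficient roots were not shared in this way. *PRX21*, called lower in both genotypes, and *PRX71* and *PRX40*, called lower in *35S:BBX32-SRDX*, were not called for R over B light. *PRX24*, *PRX20*, *PRX8*, *PRX38* and *PRX60*, called for light colour, were called in neither genotype under Pi deficiency.

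In WT shoots, Pi deficiency raised more members than it lowered, and the same held over all genes. In the *hy5-215* set 5 of 40 members tested were higher in Pi-deficient than in Pi-sufficient shoots and none was lower (12.5% of the members, 7.42% of all genes, of which 5.82% higher and 1.6% lower). For the *35S:BBX32-SRDX* set the test called 10 of 45 higher and none lower (22.2%, beside 7.75% of all genes, 6.81% higher and 0.939% lower). Under B light 9 of 29 were higher and 1 lower (34.5%, beside 20.3% of all genes, 11.6% higher and 8.65% lower), and under R light 5 of 29 were higher (17.2%, beside 4.4% of all genes, 3.82% higher and 0.585% lower). The medians over the members were 0.96, 0.55, 0.34 and 0.51 for the *hy5-215* set, the *35S:BBX32-SRDX* set, B light and R light, whereas all 4 medians over all genes lay between -0.09 and -0.03.

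**Figure D5:**
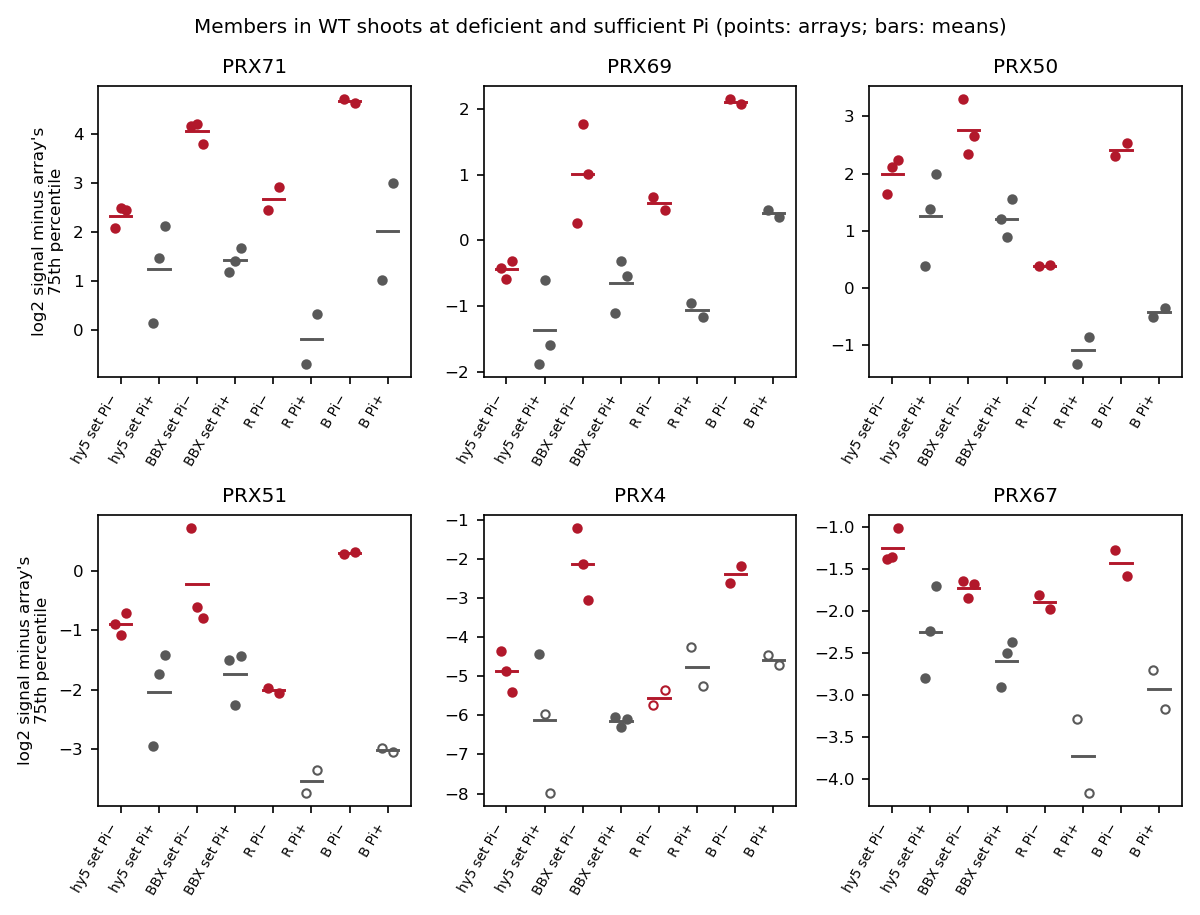
Log2 signal of *PRX71*, *PRX69*, *PRX50*, *PRX51*, *PRX4* and *PRX67* in Pi-deficient and Pi-sufficient WT shoots of the *hy5-215* set, the *35S:BBX32-SRDX* set and under R and B light. Points are arrays, bars are means and open points were not well above background. *PRX71*, *PRX69*, *PRX50* and *PRX51* are higher in Pi-deficient shoots of the *35S:BBX32-SRDX* set and of both light colours, without overlap.

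*PRX71*, *PRX69*, *PRX50* and *PRX51* rose in 3 of the 4 comparisons. *PRX71* had log2 signals of 4.15, 4.20 and 3.79 in Pi-deficient shoots, against 1.19, 1.4 and 1.68 in Pi-sufficient shoots of the *35S:BBX32-SRDX* set, a rise of 2.63 (SE 0.31, adjusted p = 0.000455). Under B light it was at 4.70 and 4.62, against 1.03 and 3.00, a rise of 2.64 (SE 0.62, adjusted p = 0.0167). Under R light it was at 2.44 and 2.92, against -0.68 and 0.33, a rise of 2.86 (SE 0.62, adjusted p = 0.0479). Pi-deficient arrays were above Pi-sufficient arrays throughout, though the Pi-sufficient arrays of the light set lay far apart. The call under R light was lost with any 1 array of the pair left out (adjusted p = 0.107 to 0.166), and that under B light without Pi-deficient replicate 1 (2.6, adjusted p = 0.0798) or 2 (2.68, adjusted p = 0.0612). *PRX71* in the *hy5-215* set had 1.09 (adjusted p = 0.0923).

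*PRX50* (AT4G37520) and *PRX51* (AT4G37530) are neighbours on the chromosome. Under B light *PRX50* was at 2.30 and 2.53 in Pi-deficient shoots, against -0.50 and -0.34 in Pi-sufficient shoots, a rise of 2.84 (SE 0.20, adjusted p = 0.000284). Under R light it was at 0.38 and 0.40, against -1.32 and -0.85, a rise of 1.48 (SE 0.20, adjusted p = 0.00989). *PRX51* was at 0.28 and 0.31 under B light with Pi deficiency and not above background with Pi sufficiency, which makes it at least 6.69-fold higher (adjusted p = 0.000133), and it was at least 2.48-fold higher under R light (adjusted p = 0.00539). *PRX50* rose by 1.55 (SE 0.37, adjusted p = 0.017) and *PRX51* by 1.49 (SE 0.44, adjusted p = 0.0391) in the *35S:BBX32-SRDX* set. The R light call of *PRX50* was lost without Pi-deficient replicate 1 (1.49, adjusted p = 0.0617), and the calls in the *35S:BBX32-SRDX* set were lost in 2 of 6 left-out fits for *PRX50* (adjusted p = 0.0638 and 0.067) and in 5 of 6 for *PRX51* (adjusted p = 0.0503 to 0.128).

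*PRX69* (AT5G64100) rose by 1.67 (SE 0.48, adjusted p = 0.0342) in the *35S:BBX32-SRDX* set, by 1.70 (SE 0.15, adjusted p = 0.000644) under B light and by 1.62 (SE 0.15, adjusted p = 0.00302) under R light. Its levels under B light were 2.15 and 2.08 in Pi-deficient against 0.47 and 0.36 in Pi-sufficient shoots. Its probes disagreed in the light set, where they spanned -0.14 to 1.70 under B light and -0.15 to 1.62 under R light, and the mean of its probes had 0.78 and 0.74. Its adjusted p in the *35S:BBX32-SRDX* set was 0.058 to 0.098 with any array left out except Pi-deficient replicate 1. *PRX67* (AT5G58390), whose neighbour *PRX68* was the shoot-only gene, was above background in Pi-deficient arrays of the light set and in no Pi-sufficient array. It was at least 2.02-fold higher under B light (adjusted p = 0.0111, and 0.0587 and 0.069 in 2 of 4 left-out fits) and at least 2.44-fold higher under R light (adjusted p = 0.0236, and 0.0509 to 0.128 without Pi-deficient replicate 1 or 2 or Pi-sufficient replicate 2). The B and R lists came from separate arrays on the same 2 slides and from 1 fit. They shared *PRX50*, *PRX51*, *PRX67*, *PRX69* and *PRX71* (50% of the B list and 100% of the R list). The *35S:BBX32-SRDX* and B lists shared *PRX4*, *PRX50*, *PRX51*, *PRX59*, *PRX69* and *PRX71* (60% of each). Over all called genes these shares were not computed.

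*PRX4*, which acts in stem lignification, rose in the *35S:BBX32-SRDX* set and was called under B light. It was at -1.21, -2.13 and -3.04 in Pi-deficient shoots, against -6.04, -6.29 and -6.09 in Pi-sufficient shoots of the *35S:BBX32-SRDX* set, a rise of 4.01 (SE 0.49, adjusted p = 0.000574). Under B light it was at -2.6 and -2.18 in Pi-deficient shoots and not above background in Pi-sufficient shoots. The adjusted p of 0.00411 belongs to the limma fit against that undetected signal. The bound is at least 1.04-fold, short of the 2-fold limit, so a rise of that size was not measured there. Under R light *PRX4* was below background in both groups. *PRX38* was at -3.97, -2.96 and -4.14 in Pi-deficient shoots of the *35S:BBX32-SRDX* set, and above background in 1 of 3 Pi-sufficient arrays (-6.63), with a difference of 3.36 (SE 0.53, adjusted p = 0.00264). *PRX58* was at least 6.42-fold higher there (adjusted p = 0.00106), since no Pi-sufficient array was above background. *PRX59* (1.17), *PRX68* (1.25) and *PRX72* (1.20) completed that list with adjusted p of 0.0251, 0.0483 and 0.0114. With 1 of the 6 arrays left out, *PRX59* was not called in 3 fits (adjusted p = 0.0629 to 0.0936) and *PRX68* not in 5 (adjusted p = 0.0515 to 0.158). The value of *PRX72* fell to 0.93 without Pi-sufficient replicate 1, and its probes spanned -0.03 to 1.20. The slide block added *PRX64* (1.04, adjusted p = 0.0106). Under B light *PRX59* (1.32), *PRX30* (1.21) and *PRX47* (1.09) rose with adjusted p of 0.00921, 0.0466 and 0.00484, *PRX47* reaching 1 without Pi-deficient replicate 2 and *PRX30* not being called in 3 of 4 left-out fits (adjusted p = 0.0628 to 0.231). Under R light the slide block added *PRX30* (1.06, adjusted p = 0.0256).

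*PRX19* (AT2G34060) was the only member called lower in Pi-deficient shoots. Under B light it was at -3.39 and -2.39 in Pi-deficient shoots, against -0.48 and -0.05 in Pi-sufficient shoots, and fell by 2.63 (SE 0.50, adjusted p = 0.00813). Both Pi-deficient arrays were below both Pi-sufficient ones, and without Pi-deficient replicate 1 the value was -2.13 (adjusted p = 0.0518). Under R light the value was -1.20 (adjusted p = 0.188). *GLK1* was not lower (0.21 under B light and 0.63 under R light, neither called), yet the green tissue markers together fell at the same time. Their summed signal was 802 to 868 in Pi-deficient and 1770 to 1930 in Pi-sufficient shoots under B light, and 812 to 1070 and 1470 to 1480 under R light. Their part in these values was not tested.

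The *hy5-215* set called other genes in shoots, and shared no call with the *35S:BBX32-SRDX* set. *PRX16* (AT2G18980) had log2 signals of -1.5, -2.12 and -2.37 in Pi-deficient shoots, against -3.92, -3.40 and -3.68 in Pi-sufficient shoots, a rise of 1.67 (SE 0.34, adjusted p = 0.00981). *PRX45* (AT4G30170) was at 0.43, -0.51 and -0.95, against -2.51, -2.33 and -1.77, a rise of 1.86 (SE 0.52, adjusted p = 0.0346). *PRX18*, *PRX20* and *PRX23* rose by 1.97 (adjusted p = 0.016), 1.75 (adjusted p = 0.0137) and 1.38 (adjusted p = 0.0122). Not every Pi-sufficient array was above background for *PRX18*. Over 8 alternative settings the lowest rise was 0.76 for *PRX18* and 0.9 for *PRX20*, each called in 6, and 1.21 for *PRX23*, called in 7. Pi-deficient replicate 1 stood apart, with the highest value of *PRX45*, *PRX16*, *PRX20* and *PRX23*, and in Pi-deficient shoots root hair marker sums reached 0.469 against at most 0.0584 in Pi-sufficient shoots, with endodermis sums reaching 0.834 against at most 0.285. Of the 5 genes called, 4 (all but *PRX18*) were among the members far higher in roots in both sets. Without that array *PRX16* had 1.42 (adjusted p = 0.0386), *PRX20* 1.31 (adjusted p = 0.0324) and *PRX23* 1.16 (adjusted p = 0.047), while *PRX18* (1.94, adjusted p = 0.0517) and *PRX45* (1.47, adjusted p = 0.123) were not called. *PRX45* also lost the call without Pi-deficient replicate 2 or Pi-sufficient replicate 1 or 2 (adjusted p = 0.0677 to 0.105), and *PRX20* without Pi-sufficient replicate 2 (1.5, adjusted p = 0.0582). Without Pi-deficient replicate 3, 14 members were called. With the slide as a block 12 were called, of which 11 were higher and *PRX19* was lower (-1.01, adjusted p = 0.00293), and *PRX71* (1.09, adjusted p = 0.0363), *PRX51* (1.13, adjusted p = 0.00869) and *PRX38* (3.19, adjusted p = 0.0195) were among those added.

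Members also differed between light colours in Pi-deficient shoots. Of 29 members tested, 1 was higher and 5 were lower under R light than under B light (20.7%, beside 9.59% of all genes, 4.31% higher and 5.29% lower). *PRX51* was at -1.97 and -2.05 under R light, against 0.28 and 0.31 under B light, and fell by 2.30 (SE 0.17, adjusted p = 0.00112). *PRX50* was at 0.38 and 0.40, against 2.30 and 2.53, and fell by 2.02 (SE 0.20, adjusted p = 0.00226). *PRX69* fell by 1.55 (SE 0.15, adjusted p = 0.00237) and *PRX47* (AT4G33420), a peroxidase of xylem vessels, by 1.4 (SE 0.18, adjusted p = 0.00525). *PRX4* was not above background under R light and was at least 2.11-fold lower than under B light (adjusted p = 0.00321). In each of these the 2 arrays of a group were close and the groups lay apart. *PRX63* (AT5G40150) rose by 1.01 (SE 0.17, adjusted p = 0.0123), a call that was lost without B replicate 1 (0.81, adjusted p = 0.059) or R replicate 2 (0.95, adjusted p = 0.0627). With the slide as a block 9 members were called, the added ones being *PRX71* (-1.98, adjusted p = 0.0354), *PRX32* (1.37, adjusted p = 0.0269) and *PRX72* (1.85, adjusted p = 0.0415).

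Whether the response to Pi differed between genotypes, light colours or organs was tested as an interaction. In roots, *PRX27* was the only member of 51 whose response differed in *hy5-215* (1.96%, beside 0.332% of all genes). It was at 3.93, 3.85 and 4.01 in Pi-deficient and 4.50, 4.33 and 4.29 in Pi-sufficient *hy5-215* roots, so that its decline was smaller than in WT by 1.07 (SE 0.11, adjusted p = 0.00697). With the slide as a block *PRX59* was called as well (-1.5, adjusted p = 0.0291). Between R and B light *PRX24* differed (1 of 45, or 2.22%, beside 1.23% of all genes), with 1.89 (SE 0.33, adjusted p = 0.0404), and *PRX56* had 2.23 (adjusted p = 0.0512). The slide block called *PRX24*, *PRX56* (2.23, adjusted p = 0.0196) and *PRX20* (1.29, adjusted p = 0.0351). The *PRX24* call was lost with any 1 array left out except either B Pi-deficient array (adjusted p = 0.0523 to 0.16). In *35S:BBX32-SRDX* roots limma called none of 53 members (0.0712% of all genes), and 9 had an unadjusted p under 0.05, a limit at which the share of all genes was not computed. For *PRX60*, *PRX73* and *PRX44* the interaction values there were -0.88 (adjusted p = 0.808), -0.98 (adjusted p = 0.926) and -0.99 (adjusted p = 0.933), and none passed the test.

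Between roots and shoots of WT, the response to Pi differed for 7 of 53 members in the *hy5-215* set, all lower in roots (13.2%, beside 5.99% of all genes and 4.35% lower), and for 9 of 55 in the *35S:BBX32-SRDX* set, with 8 lower in roots (16.4%, beside 7.01% of all genes and 5.55% lower). The differences in the *35S:BBX32-SRDX* set were -3.16 (SE 0.47, adjusted p = 0.000338) for *PRX71*, -3.15 (SE 0.71, adjusted p = 0.00806) for *PRX4* and -2.77 (SE 0.58, adjusted p = 0.00519) for *PRX38*, which was above background in 1 of 3 Pi-sufficient shoot arrays. *PRX58*, *PRX68* and *PRX28*, the member called the other way, were not above background on any array of at least 1 of the groups, so the size of their values is not a measured one. *PRX28* was not called with the normexp background and quantile normalization (adjusted p = 0.26). *PRX23* (AT2G38390) was called in both sets, with -1.93 (SE 0.34, adjusted p = 0.00163) in the *hy5-215* set and -1.38 (SE 0.41, adjusted p = 0.0342) in the *35S:BBX32-SRDX* set. Its call in the second set was lost in 8 of the 12 left-out fits (adjusted p = 0.0504 to 0.0922), as was that of *PRX50* (adjusted p = 0.052 to 0.0991). Without WT Pi-sufficient root replicate 1, *PRX23*, *PRX50* and *PRX68* were all lost and 6 calls were left. The slide block added *PRX51*, *PRX64*, *PRX69* and *PRX8* there. In place of the 7 calls of the *hy5-215* set there were 4 without Pi-deficient shoot replicate 1, any Pi-deficient root array or Pi-sufficient root replicate 1 or 3, and in each of these fits *PRX45*, *PRX32* and *PRX51* were the ones lost. There were 18 calls without Pi-deficient shoot replicate 3 and 13 with the slide as a block, which added *PRX64*, *PRX72*, *PRX27*, *PRX69*, *PRX68* and *PRX20*, all lower in roots.

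Genes that feed or accompany the peroxidases were followed as lists. Of 15 genes of monolignol synthesis, *PAL1* was higher in Pi-deficient shoots by 1.83 in the *hy5-215* set and by 2.33 in the *35S:BBX32-SRDX* set, *4CL2* by 1.71, by 2.15 and, under B light, by 1.49, and *CAD5* by 1.68 in the *35S:BBX32-SRDX* set, 1.66 under B light and 1.20 under R light, whereas *PAL3* was lower under B light (-1.58). Among 10 NADPH oxidase genes, which supply the superoxide from which hydrogen peroxide forms, *RBOHC* was higher in Pi-deficient shoots by 4.88 in the *35S:BBX32-SRDX* set and by 3.41 under B light, and lower by 3.38 under R than under B light in Pi-deficient shoots. *RBOHE* (1.94, *hy5-215* set), *RBOHB* (2.24, *35S:BBX32-SRDX* set), *RBOHD* (1.63, B light) and *RBOHF* (1.64, B light) were also higher in Pi-deficient shoots. Of the 3 laccases, which polymerise lignin with oxygen in place of peroxide, *LAC11* (-1.08) and *LAC17* (-1.1) were lower in Pi-deficient roots of the *35S:BBX32-SRDX* set, and *LAC4* was higher under R than under B light by 1.04 in roots and 1.56 in shoots with Pi deficiency. All of these values were called, and single calls of other genes of these lists in roots, between genotypes and between light colours are not given. Of the 14 peroxidases set aside, 11 and 8 were called higher in Pi-deficient roots of the *hy5-215* and *35S:BBX32-SRDX* sets, 10 under B light and 1 under R light, and 10 were lower under R than under B light in Pi-deficient roots. That set was picked on these samples for its rise under Pi deficiency in 3 of these comparisons, and the B arrays with Pi deficiency are shared with the comparison of light colours, so its counts are a description.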

How the data were processed

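The 64 arrays carry Cy3-labelled RNA of 1 sample each on a 4x44k design of 45220 spots and 43603 probes. The authors deposited the scanner output of Agilent Feature Extraction (9.1.3.1 on 24 arrays and 11.5.1.1 on 40, per the file headers). The processed signal is an intensity that had been background-subtracted and spatially detrended, with no normalization between arrays. The spot medians and local backgrounds, deposited as intensity too, and other columns, deposited as flags of 0 or 1 (above background, saturated, outlier), were also read. Per the comparison made here, the authors' own deposited table is in natural log (ln) units and differs from the scanner signal by about 1 constant on each array. Its scale is not stated in the file.

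Here log2 of the processed signal minus each array's 75th percentile was used, outlier spots were left out and spots of a probe averaged. Of the probes, 36163 matched 26716 genes of the TAIR10.1 annotation. A gene was tested where every array of at least 1 group of the fit was well above background. limma 3.58.1 in R 4.3.3 fitted 12 arrays for each organ of a white-light set, 8 for each organ of the light set and 24 for contrasts of organ. Tests were two-sided, with Benjamini-Hochberg adjustment across every gene tested. Where a group had no array well above background, the fold is a bound against the lowest detected signal of each array. Arrays are biological replicates per the study's methods, and their number, with signal over background in the light set, limits the precision.

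Slide and replicate number are the same. Arrays of 1 slide deviated together in the white-light sets (r of their deviations from the group means 0.283 to 0.606 and 0.146 to 0.644 in roots, 0.343 to 0.76 and 0.315 to 0.651 in shoots), so those values were also fitted with the slide as a block. Each group kept its place on the slide, which cannot be told apart from the group. The sets were scanned separately and were never tested against each other.

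The members named are up to the 5 highest and 5 lowest called in a comparison without overlap between groups, and those of the role lists. *COBL9* in shoots, *CA1* in roots, *PRX42* and *PRX43* and the uncalled values set beside a call were named after their values were seen. The members and lists were chosen with earlier results of these data known. Genotype and light colour in Pi-sufficient shoots were not analysed here. Other settings (quantile normalization, median scaling, normexp with an offset of 50, the authors' table, no filter, the mean of probes, only the arrays compared, arrays left out) were also run.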

Additional observations from a re-analysis of the deposited data

Results flagged for a closer look

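A difference in response between 2 genotypes, light colours or organs passed its own test for 18 values, all from limma with adjusted p under the threshold. In roots, *PRX27* differed by 1.07 in its response to Pi between *hy5-215* and WT. It was at 3.93 in Pi-deficient and 4.37 in Pi-sufficient *hy5-215* roots, and at 2.31 and 3.82 in WT roots (means, n = 3 each). *PRX24* differed by 1.89 between R and B light, with a Pi difference of -0.51 (adjusted p = 0.451) under R light and -2.40 (adjusted p = 0.00118) under B light.

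In WT plants of the *hy5-215* set, the response to Pi deficiency in roots minus that in shoots was -2.06 for *PRX16*, -2 for *PRX18*, -1.93 for *PRX23*, -1.92 for *PRX45*, -1.58 for *PRX56*, -1.38 for *PRX32* and -1.35 for *PRX51*. With 1 of the 12 arrays left out, the call was lost in 9 fits for *PRX45* (adjusted p = 0.0543 to 0.0861), in 10 for *PRX32* (adjusted p = 0.0529 to 0.115) and in 11 for *PRX51* (adjusted p = 0.0511 to 0.116), among them the fits without WT Pi-deficient replicate 1 of either organ. The same differences in the *35S:BBX32-SRDX* set were -3.84 for *PRX58*, -3.16 for *PRX71*, -3.15 for *PRX4*, -2.77 for *PRX38*, -1.58 for *PRX68*, -1.56 for *PRX72*, -1.38 for *PRX23*, -1.37 for *PRX50* and 2.04 for *PRX28*. With 1 of the 12 arrays left out, the call was lost in 7 fits for *PRX68* (adjusted p = 0.0912 to 0.127), in 8 for *PRX23* (adjusted p = 0.0504 to 0.0922) and in 8 for *PRX50* (adjusted p = 0.052 to 0.0991). No shoot array was above background for *PRX28*, no Pi-sufficient shoot array for *PRX58* and no root array for *PRX68*, so that the size of these values is not a measured one. *PRX18* and *PRX38* were each above background in 1 of 3 Pi-sufficient shoot arrays. With the normexp background and quantile normalization *PRX18* (-0.86), *PRX28* (0.23), *PRX38* (-0.95) and *PRX68* (-0.75) were not called.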

How the results depend on the processing

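No value changed direction. Of 1082 alternative values of the called members that are named, 990 kept the call and 92 lost it, 33 of them under the normexp background (with quantile normalization), 16 each with the authors' table and with no filter on dim probes, 14 with only the arrays compared, 4 each under quantile normalization and the mean of probes, 3 with median scaling and 2 under the slide block. Of 836 values with an array left out, 717 kept the call. Under normexp, 2 members were called for Pi in roots under B light in place of 5, 1 under R light in place of 2, 6 in shoots under B light in place of 10, 3 under R light in place of 5, 1 for *35S:BBX32-SRDX* in Pi-sufficient roots in place of 2, and 3 for R over B light in Pi-deficient roots in place of 8. The authors' table gave 2 for Pi in roots under B light, 1 under R light, 2 for R over B light in Pi-deficient roots and 0 for light by Pi in place of 1. With no filter there were 1 for Pi in roots under B light and 0 under R light, 18 in shoots under B light, 3 under R light, 3 for R over B light in Pi-deficient roots and 0 for light by Pi, in a fit over more genes. Quantile normalization gave 1 for Pi in R light roots and 2 for light by Pi. With only the arrays compared, fewer arrays set the spread, and the counts were 3 for Pi in B light roots, 2 in shoots of the *hy5-215* set in place of 5, 5 in shoots of the *35S:BBX32-SRDX* set in place of 10 and 1 for *35S:BBX32-SRDX* in Pi-sufficient roots. The cause of the other shifts was not tested.

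With the slide (replicate number) as a block, 12 members were called for Pi in shoots of the *hy5-215* set in place of 5, 4 for *35S:BBX32-SRDX* in Pi-sufficient roots in place of 2, 5 in its Pi-deficient shoots in place of 0, 2 for R over B light in Pi-sufficient roots in place of 0, 2 for *hy5-215* by Pi in place of 1, 3 for light by Pi in place of 1 and 13 for organ by Pi in the *hy5-215* set in place of 7. Every other count stayed within 1.5 times. In the light set, with 2 slides for each organ, r between arrays of 1 slide was 0.0256 to 0.41 in roots and 0.0742 to 0.276 in shoots.

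With 1 array left out, the counts ranged from 43 to 44 and 43 to 45 for organ in the *hy5-215* and *35S:BBX32-SRDX* sets (44 each with all arrays). For Pi in roots they ranged from 5 (without Pi-deficient replicate 1) to 8 in the *hy5-215* set, from 3 (without Pi-sufficient replicate 1 or Pi-deficient replicate 2, and 4 without replicate 3 of either) to 8 in the *35S:BBX32-SRDX* set, from 1 (without Pi-sufficient replicate 2, with 2 without Pi-deficient replicate 2 and 3 without Pi-sufficient replicate 1) to 5 under B light and from 0 (without either Pi-deficient array) to 1 under R light. For Pi in shoots they ranged from 3 (without Pi-deficient replicate 1) to 14 (without Pi-deficient replicate 3, with 11 without Pi-sufficient replicate 3), from 6 (without any 1 Pi-sufficient array) to 9, from 6 (without Pi-deficient replicate 1) to 10 and from 2 (without Pi-deficient replicate 1, with 3 without Pi-deficient or Pi-sufficient replicate 2) to 4, for the *hy5-215* set, the *35S:BBX32-SRDX* set, B light and R light. For *hy5-215* they were 7 to 8 and 6 to 7 in Pi-deficient and Pi-sufficient roots and 0 to 1 in shoots (1 without WT replicate 3), and for *35S:BBX32-SRDX* 7 to 9, 1 to 3 and 0 to 0 (1 without *35S:BBX32-SRDX* replicate 2 or WT replicate 1 or 2 in Pi-sufficient roots). For R over B light they were 3 to 7 in Pi-deficient roots (3 without R replicate 2, 4 without replicate 1 of either light), 0 to 0 in Pi-sufficient roots and 5 to 7 in shoots. The interactions gave 1 to 2 for *hy5-215* by Pi (2 without WT Pi-sufficient replicate 1), 0 to 0 for *35S:BBX32-SRDX* by Pi, 0 to 2 for light by Pi (2 without B Pi-deficient replicate 2, 0 without any R array or B Pi-sufficient replicate 2), 4 to 18 for organ by Pi in the *hy5-215* set (4 without any Pi-deficient root array, Pi-sufficient root replicate 1 or 3 or Pi-deficient shoot replicate 1, 18 without Pi-deficient shoot replicate 3) and 6 to 9 in the *35S:BBX32-SRDX* set. In the light set this leaves 1 array in a group, which is assumed to vary like the other groups.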

Other observations

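*PRX29*, the member at least 345-fold lower in roots than in shoots, was above background in a single root array, WT Pi-deficient replicate 1 of the *hy5-215* set. Its log2 signal there was -6.04, against -9.60 and -8.93 in replicates 2 and 3. The same array had the highest *RBCS1A* of its group, 3.65 against 1.53 and 1.07, and the highest *CA1*, 0.14 against -3.86 and -4.77. *PRX68*, the other shoot-only member, was not above background in it (-9.67).

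*PRX22* (AT2G38380) and *PRX23*, neighbours on the chromosome, were both called higher in roots than in shoots in both white-light sets. In WT roots *PRX22* averaged 4.29 ± 0.11 in Pi-deficient and 4.25 ± 0.09 in Pi-sufficient plants of the *hy5-215* set, and 4.54 ± 0.21 and 4.56 ± 0.16 in the *35S:BBX32-SRDX* set (SD, n = 3 each). *PRX23* averaged 2.45 ± 0.23 in Pi-deficient and 3.00 ± 0.12 in Pi-sufficient roots of the *hy5-215* set, and 2.59 ± 0.38 and 3.51 ± 0.20 in the *35S:BBX32-SRDX* set. Neither was called for Pi in roots, and the difference between the 2 genes was not tested.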
